A study of Mus musculus with 8 samples.

Results

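The genomic regions described here gave a peak in every anti-OTX2 chromatin immunoprecipitation (ChIP-seq) library of the embryonic mouse subpallium. OTX2 belongs to the bicoid-related homeodomain proteins, a class of transcription factors that bind DNA directly, and it is known for its part in forming the forebrain and midbrain. In the ventral forebrain it is expressed in progenitors, and its loss there is known to disturb patterning. In ChIP-seq, DNA fixed to the protein is precipitated and sequenced, and a peak is a stretch where reads pile up above background.

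A region was formed by merging the peaks of the 3 OTX2 libraries that shared at least 1 bp. It was kept where each of the 3 lists contributed a peak and no input or IgG peak touched it. This rule gave 789 regions out of 22629 merged OTX2 regions, or 3.49% of them. Because presence in the lists chose the regions, their presence, ranks and widths are described here without a test.

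The tissue was the septum with the medial and lateral ganglionic eminences, the swellings that produce basal ganglia neurons and cortical interneurons, from wild-type CD-1 embryos at E12.5, around mid-gestation. Tissue of several embryos was pooled per sample, so a library mixes the dissected domains, and the pools carried no genetic or drug treatment. The groups were 3 OTX2 ChIP libraries, 3 input libraries of unprecipitated chromatin and 2 goat IgG libraries, and the IgG control was left out of the third experiment. The design text calls the 3 ChIP experiments independent, and the labels do not say whether they used separate litters. Peak lists hold no expression values, so the dissection could not be checked against marker genes. Read depth is unknown, because the lists hold a position and a rank for each peak and no counts.

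The OTX2 lists were of very unequal length, with 1848 peaks in replicate 1, 1298 in replicate 2 and 22325 in replicate 3. The input lists held 138 to 235 peaks and the IgG lists 149 and 182. The 2 lists of the third experiment carry track names of another form than the other 6, with the word score in them. Whether the third experiment was called with the same settings was not tested. Counts that rest on replicate 3 are therefore also given for replicates 1 and 2 where they can be had.

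The 789 regions held 797 peaks of replicate 1 (43.1% of its list), 798 of replicate 2 (61.5%) and 789 of replicate 3 (3.53%). Each region held 1 replicate 3 peak, so the small share in the longest list follows from its length. Replicates 1 and 2 alone shared 759 regions free of control peaks, and 748 of the 789 regions were among the places found that way. Without replicate 2 the remaining pair shared 1583 regions, and without replicate 1 the remaining pair shared 1150. Leaving out a list drops the demand for a peak in it, so the higher numbers without a short list follow from the rule. Leaving out the long list moved the number little. Only 5 regions of replicates 1 and 2 free of control peaks lacked a replicate 3 peak.

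The same merging was applied to the background libraries. The 3 input lists merged into 433 regions, of which 23 were in every input list and 0 were also free of OTX2 and IgG peaks. The 2 IgG lists merged into 279 regions, of which 35 were in both and 2 were free of OTX2 and input peaks. Before control peaks were considered, 806 of 22629 merged regions were in all 3 OTX2 lists, and 793 of 2345 were in both replicates 1 and 2. Of the 22629 merged regions, 20354 came from replicate 3 only, and the shortest OTX2 list held 1298 peaks. Unequal length thus kept the share of the 3 OTX2 lists low whatever their recurrence. That share can therefore not be compared with the shares in the controls. For the 2 IgG lists the share of merged regions was below that of replicates 1 and 2, also a pair of lists. All but 2 of the recurrent control places were touched by a library of another kind.

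The best-ranked peaks of each list lay almost all in the recurrent regions, and in the 2 short lists the regions also reached nearly to the end. The rank is the authors' order of peaks within a list, with 1 the best, and what it orders the peaks by is not stated. In each of the 3 lists, 49 of the best 50 peaks lay in the 789 regions (98.0%, exact Clopper-Pearson 95% interval 89.4 to 99.9%, which covers counting error only). Over the best 100 peaks the number was 91 in replicate 1, 94 in replicate 2 and 98 in replicate 3. Of the best 100 peaks, 8 in replicate 1, 3 in replicate 2 and 0 in replicate 3 lay in regions touched by a control peak. Another 1, 3 and 2 lay in regions of 2 libraries. From rank 201 on, the share fell with each step in every list.

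In replicate 1 it was 52.2% at ranks 501 to 1000 (47.7 to 56.7%) and 16.7% from rank 1001 on (14.3 to 19.4%). In replicate 2 it was 56.6% (52.1 to 61.0%) and 29.2% (24.1 to 34.7%) over the corresponding ranks. In replicate 3 it was 41.6% (37.2 to 46.1%) at ranks 501 to 1000, 12.2% (10.2 to 14.4%) at ranks 1001 to 2000 and 1.20% (0.842 to 1.66%) at ranks 2001 to 5000. Beyond rank 10000 of replicate 3, 0 of 12325 peaks lay in a region, which allows a share of up to 0.0243%. The plot of shares by rank shows that the 3 curves begin together and that replicate 3 has a tail with almost no recurrent region.

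**Figure D1:**
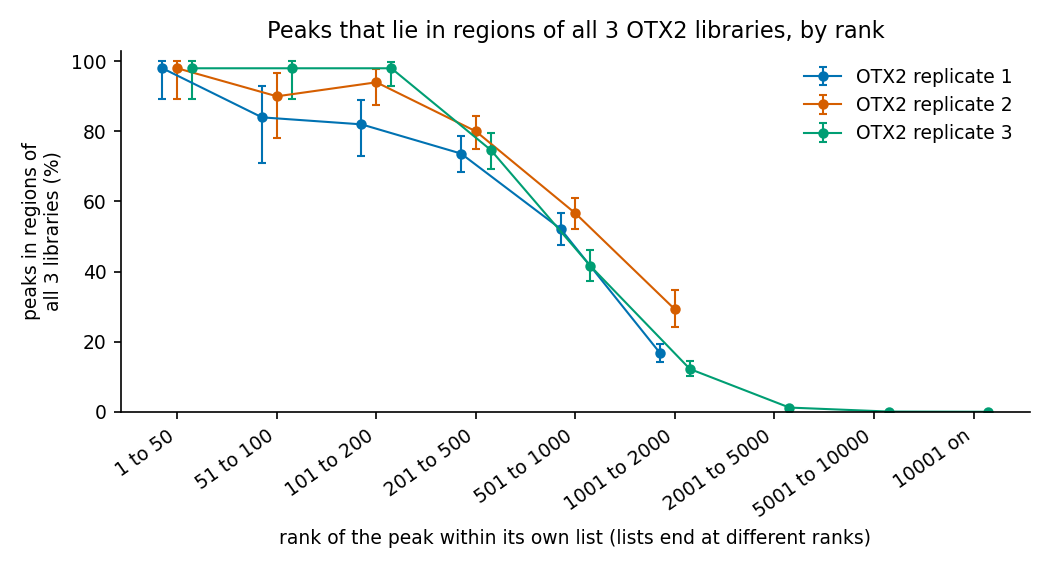
Percentage of the peaks of each OTX2 list that lie in the 789 regions (y axis), by the rank of the peak within its list (x axis, unequal steps); bars are exact 95% intervals. All 3 lists begin at 98.0%, and replicate 3 is at 1.20% for ranks 2001 to 5000.

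The regions had median best ranks of 504 in replicate 1 (interquartile range 230 to 865), 455 in replicate 2 (212 to 766) and 456 in replicate 3 (202 to 889). The medians were close although the third list was many times longer. The lowest-placed region was at rank 1783 in replicate 1, 1296 in replicate 2 and 6080 in replicate 3. As a percentage of the list length, the median rank was 27.3 in replicate 1, 35.1 in replicate 2 and 2.04 in replicate 3, and the highest was 96.5, 99.8 and 27.2. The regions thus spanned nearly the whole of the short lists and the first part of the long one. Only 29 of the 789 regions lay below the best 10% of replicate 3.

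Regions with a missing library ranked further down. The 794 regions of replicates 1 and 3 without a replicate 2 peak had median ranks of 1185.5 in replicate 1 and 1906 in replicate 3. The 361 regions of replicates 2 and 3, which lacked replicate 1, had medians of 925 in replicate 2 and 1721 in replicate 3. The 20335 regions of replicate 3 alone had a median rank of 12122, and 5 regions of replicates 1 and 2 lacked a replicate 3 peak. These ranks follow the choice of the regions and carry no test.

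Within the 789 regions the libraries ordered the sites alike in part. Spearman's rho between ranks was 0.66 for replicates 1 and 2, 0.75 for replicates 1 and 3, and 0.76 for replicates 2 and 3, each over the same 789 regions, which share their libraries.

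When the regions were numbered 1 to 789 within each library, 111 were among the first 198 in all 3 libraries. In pairs, replicates 1 and 2 had 130 of their first 198 in common, replicates 1 and 3 had 139, and replicates 2 and 3 had 138. Complete contradictions were rare. Of the first 198 in replicate 1, 6 were among the last 197 in replicate 2, and 5 went the other way. Of the first 198 in replicate 3, 5 were among the last 197 in replicate 1 and 3 in replicate 2, and 0 regions went the other way in either pair. In the plots of order against order, points crowd at the best corner and spread out towards the middle.

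**Figure D2:**
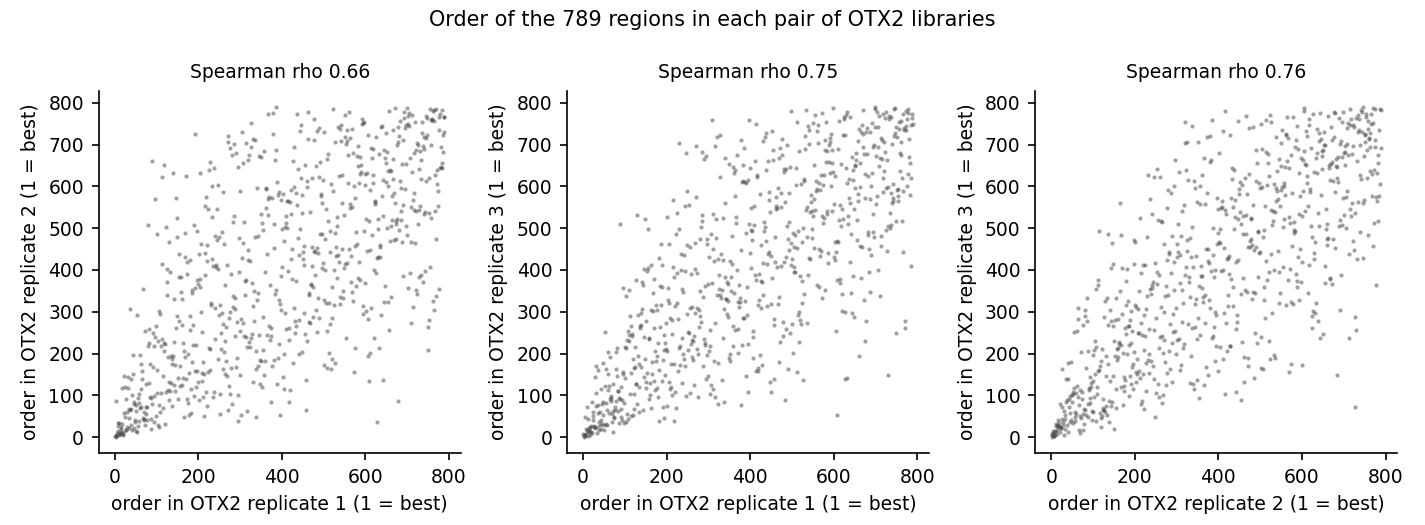
Order of the 789 regions in one OTX2 library against another, 1 being the best; each point is 1 region and each panel 1 pair of libraries. Spearman's rho is 0.66, 0.75 and 0.76 from left to right, and points are densest at the best ranks.

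The region with the largest change of order lay at chr19:55629368-55631640 (mm9) and was chosen after its values were seen. It was 192nd of 789 in replicate 1, 726th in replicate 2 and 72nd in replicate 3, with a peak of 310 bp in replicate 1 and 165 bp in replicate 2. A region at chr14:104162550-104164495, picked in the same way, was 627th, 35th and 140th. Replicate 2 thus stood apart at the first region and replicate 1 at the other.

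The rank percentile is the rank divided by the length of the list, so a low value is a good rank. By this measure the 5 regions of widest spread were all placed near the end of replicate 2 and near the start of replicate 3. A region at chr12:109558472-109559770 had percentiles of 26.5 in replicate 1, 99.8 in replicate 2 and 6.22 in replicate 3. One at chr19:14671783-14673658 had 38.9, 95.6 and 4.11. One at chr3:28679536-28680246 had 42.9, 93.1 and 1.84. The other two were late in replicate 1 as well, with 78.6, 94.1 and 3.08 at chr10:66382836-66385222, and 75.5, 94.7 and 3.78 at chr6:144428135-144430471. No region of the 789 had a percentile above 27.2 in replicate 3, so a low value there was shared by all of them. Numbered among the 789 regions, these 5 were 691st, 606th, 365th, 516th and 576th in replicate 3, in the order named. In replicate 2 they were 789th, 786th, 778th, 782nd and 784th.

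The best-placed regions were picked by their worst rank percentile over the 3 lists. The best 20 by this measure lay on 15 chromosomes, and the worst percentile among them in any list was 2.003. They were 1129 to 5128 bp wide as merged regions. In 19 of them the centres of the replicate 1 and 2 peaks lay within 110.5 bp of each other, and the median distance was 29.0 bp.

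The first of them, at chr12:29501678-29503664, was ranked 2, 1 and 1 in replicates 1, 2 and 3. Its peaks were 423, 474 and 1987 bp wide, and the narrow ones lay 29.5 bp apart by their centres. The next, at chr4:71827544-71830203, was ranked 1, 2 and 7 and had the widest replicate 1 peak but one among the 20, of 786 bp. Its replicate 1 and 2 centres were 5.0 bp apart, so the site was placed almost identically by both.

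A region at chr8:100832615-100834407 was ranked 3, 3 and 6, and its peaks were 463, 594 and 1793 bp wide. Ranks of 5, 6 and 2 belonged to a region at chr19:15877453-15878665, where 580 bp were covered by all 3 libraries. At chr16:72510439-72511794 ranks were 13, 7 and 3 and the centres of all 3 libraries lay within 34.0 bp. These compact sites contrast in geometry with the region at chr16:77235649-77240776, ranked 15, 20 and 12. There the merged region was 5128 bp wide, and the centres of replicates 1 and 2 were 483.5 bp apart, the largest such distance among the 20.

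Several more of the 20 were ranked within the best 33 of every list. The region at chr7:151813105-151815212 was ranked 12, 13 and 17, and the one at chr19:44588777-44590344 was ranked 19, 8 and 13. The region at chr5:77550888-77552736 was ranked 20, 11 and 26. The one at chr6:23230133-23231903 was ranked 26, 18 and 27. The 3 lists placed each of these 4 within a span of at most 15 ranks.

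Similar ranks were found at chr17:64156630-64158556 (27, 16 and 25), at chr2:70039847-70041529 (14, 23 and 21) and at chr9:64453173-64454413 (33, 21 and 24). A region at chr14:13169635-13171364 was ranked 29, 24 and 22. The last of the 20, at chr17:10936682-10938802, was ranked 9, 26 and 72. Its rank was worst in replicate 3, but its rank percentile was worst in replicate 2 (0.487, 2.003 and 0.323). The other 5 were ranked 6, 10 and 5 (chr1:191615220-191616348), 16, 9 and 14 (chr1:41870215-41872566), 10, 5 and 15 (chr15:85287739-85290080), 7, 14 and 8 (chr3:88023161-88026808) and 21, 4 and 9 (chr5:99907540-99909754). No gene is named for any region, because an mm9 annotation was not used here.

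The geometry of the regions was nested. In all 789 regions the merged bounds were exactly those of 1 replicate 3 peak, and every replicate 1 and replicate 2 peak lay wholly inside it. The replicate 3 peak extended past the best replicate 1 peak by at least 77 bp on the nearer side, with a median of 470 bp. For replicate 2 the smallest margin was 91 bp and the median 496 bp. The nesting was not particular to these regions: all 796 replicate 1 peaks of the regions of replicates 1 and 3 lay inside a replicate 3 peak, and so did 360 of 361 replicate 2 peaks of the regions of replicates 2 and 3.

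Merged regions were 655 to 23898 bp wide, with a median of 1585 bp, and together covered 1462960 bp. Taking the best-ranked peak of each library, replicate 1 peaks had a median of 270 bp, replicate 2 peaks 223 bp and replicate 3 peaks 1585 bp. Replicate 3 peaks were a median 5.85 times as wide as those of replicate 1 and 6.95 times as wide as those of replicate 2 at the same region. Replicate 1 peaks were a median 1.15 times as wide as those of replicate 2. Single regions varied more, with a 10th to 90th percentile of 0.69 to 1.97 for this ratio. The width of a region is thus the width of its replicate 3 peak, and without that library the 759 shared regions had a median width of 333 bp.

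Peaks outside the regions were narrower in each library. Replicate 1 peaks outside had a median of 162 bp, replicate 2 peaks 154 bp and replicate 3 peaks 815 bp. Inside the regions, better-ranked peaks were wider, with Spearman's rho between rank and width of -0.80 in replicate 1, -0.76 in replicate 2 and -0.27 in replicate 3. The order by width was less alike between libraries than the order by rank, with rho of 0.48 for replicates 1 and 2, 0.32 for replicates 1 and 3, and 0.27 for replicates 2 and 3. These correlations are over the same 789 regions and share their libraries.

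Peak centres inside a region lay closest together, by the median, in replicates 1 and 2. Centres are midpoints of peaks and replicate 3 peaks were far wider, so likeness of placement cannot be told apart from peak width. In 486 of 789 regions (61.6%) the replicate 1 and 2 centres lay closer to each other than to the replicate 3 centre. The centres of their best-ranked peaks were a median 46.0 bp apart (interquartile range 20.5 to 92.5 bp), and 617 of 789 regions (78.2%) had them within 100 bp. Replicate 1 and 3 centres were a median 122.5 bp apart (50.5 to 262.5 bp), and replicate 2 and 3 centres 126 bp (50.5 to 291.5 bp). Within 100 bp lay 44.0% and 43.0% of the regions, respectively. Centres over 500 bp apart occurred in 9 regions for replicates 1 and 2, in 99 for replicates 1 and 3 and in 96 for replicates 2 and 3. The plot of centre distances shows the first pair rising steeply and the other two almost on top of each other.

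**Figure D3:**
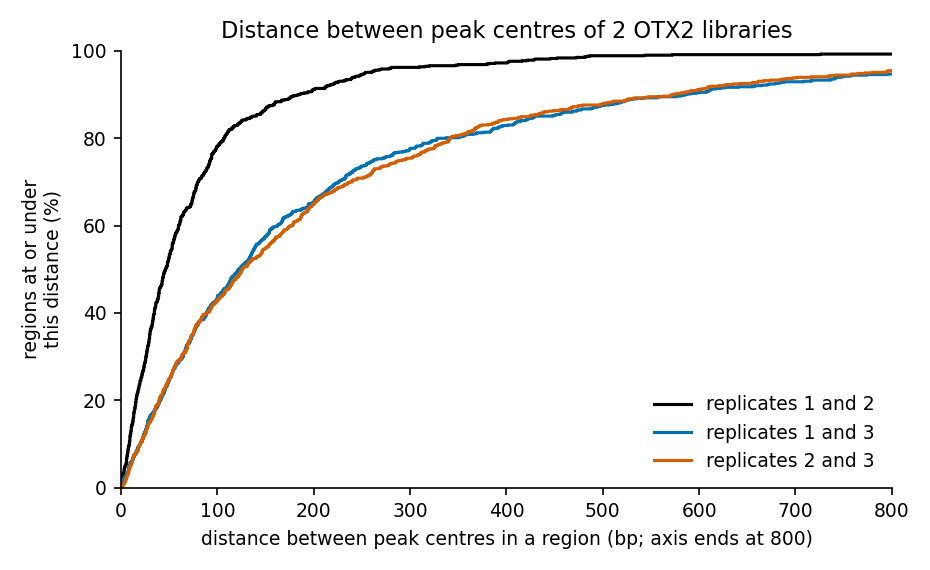
Cumulative percentage of the 789 regions (y axis) by the distance between the peak centres of 2 OTX2 libraries in bp (x axis, ending at 800); 1 line per pair. The line of replicates 1 and 2 reaches 78.2% at 100 bp, where the lines with replicate 3 are at 44.0% and 43.0%.

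Peaks of replicates 1 and 2 often lay to the same side of the replicate 3 centre. This was so in 667 of 789 regions (84.5%). Both offsets use the same replicate 3 centre, and replicate 1 and 2 centres that lie close together tend to fall on 1 side of it, so the count adds little to their distance. Sides were split almost evenly along the chromosome, since replicate 1 lay to the left of replicate 3 in 401 regions and to the right in 387. The mean of the replicate 1 and 2 centres fell in the middle one of 3 equal parts of the replicate 3 peak in 621 regions (78.7%).

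The median distance between replicate 1 and 2 centres differed little along the ranking. It was 41.8 bp in the 198 regions of best mean rank percentile and 53.0 bp in the last 197. The upper quartile of this distance rose from 74.4 to 108 bp. Peak width fell over the same span from 407 to 169 bp in replicate 1 and from 362 to 159 bp in replicate 2. In 748 regions some bases were covered by all 3 libraries, with a median of 175 bp over all 789. In the other 41 the replicate 1 and 2 peaks did not meet and were joined only through the replicate 3 peak. When the regions were divided into 4 equal parts by mean rank percentile, the best part held 1 of the 41, the next 1, the third 14 and the last 25. The gap between the 2 narrow peaks had a median of 94 bp and reached 908 bp.

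Most regions held a single peak per library. This was so in 780 regions, and in the other 9 replicate 1 or 2 had several peaks under 1 replicate 3 peak. The widest region, at chr3:34543653-34567550, was one of them, with 2 peaks of replicate 1, 4 of replicate 2 and 1 of replicate 3. It was ranked 171, 636 and 191. Its best-ranked replicate 1 and 2 peaks lay 9388.5 bp apart, so these 2 libraries put their best peak at different places of the same 23898 bp.

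Other regions with several peaks were narrower. The region at chr8:8653579-8659280 was ranked 34, 71 and 10 and held 2 peaks in each of replicates 1 and 2. The one at chr13:98020127-98027405 held 3 and 2 peaks and was ranked 767, 467 and 639. The one at chr14:118628566-118633908 held 1 and 2 peaks and was ranked 72, 46 and 100. Such stretches count as 1 region here, although the short lists resolve more than 1 peak in them.

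Regions just inside the rule were those in which the peaks of different libraries shared the fewest bases in sum. The smallest sum, 260 bp, was at chr11:37491912-37492996, ranked 1639, 877 and 858. At chr4:7924033-7925354 the sum was 261 bp and the ranks 1104, 1115 and 602. The region at chr10:66382836-66385222, named above for its spread, followed with 268 bp. In these 3 the replicate 1 and 2 peaks did not meet.

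Just outside the rule were 17 regions that held all 3 OTX2 libraries and touched a control peak. The smallest contact was 129 bp at chr18:63027670-63028857, with a peak of input replicate 3, at OTX2 ranks of 561, 238 and 541. The region at chr13:84922366-84924078 met a peak of input replicate 1 over 150 bp and was ranked 272, 315 and 288. The third, at chr13:120283184-120283908, met IgG replicate 2 over 168 bp and was ranked 848, 1131 and 18088. The first pair had ranks within the span of the 789 regions in every list. The third was below the last of them in replicate 3.

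Of the 17, 11 touched a peak in each of the 5 control lists. Those 11 were ranked between 68 and 1394 in replicates 1 and 2, and between 1179 and 19152 in replicate 3. In replicate 3, 6 of the 11 ranked below all 789 regions. On the other side of the rule, none of the 1160 regions of 2 libraries had a peak of the missing library within 500 bp, 2 had one within 1000 bp, and 54 (4.66%) had one within 10000 bp. The nearest miss was at chr10:94404698-94405717, where the replicate 2 peak lay 703 bp away.

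Control peaks were far from most of the regions. The nearest input or IgG peak lay a median 1668 kb away, 47 of 789 regions had one within 100 kb and 9 within 10 kb. The closest was 1.28 kb from a region. The control lists were short and the rule removed any contact, so these distances cannot be read as particular to the 789 regions. The same distances were not taken for other regions.

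Some of the regions lay close together. Another of the 789 lay within 50 kb, measured between centres, for 130 of them (16.5%, exact 95% interval 14.0 to 19.3%). For regions of exactly 2 libraries, 127 of 1160 had one of the 789 within 50 kb (10.9%, 9.21 to 12.9%). For regions of replicate 3 alone it was 1468 of 20335 (7.22%, 6.87 to 7.58%). In regions of replicates 1 and 2 alone, formed without replicate 3, 17.1% had another such region within 50 kb (14.5 to 20.0%). The share among the first 3 classes thus went down with the number of libraries that held a region. Neighbouring regions are not independent of one another, so no test is given.

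Among the regions of replicate 3 alone, the share also followed their rank. It was 16.8% for the 101 ranked 1 to 1000 (10.1 to 25.6%), 9.23% for those ranked 1001 to 5000 (8.23 to 10.3%) and 6.38% for those ranked 15001 to 22325 (5.83 to 6.96%). The first of these shares was close to that of the 789 regions themselves, with a wide interval. Counting neighbours of any kind, the 789 regions had a median of 2 other OTX2 regions within 50 kb (interquartile range 1 to 4), and 17.4% had none. Regions of exactly 2 libraries were close to that, with a median of 2 (1 to 3) and 20.8% with none. Regions of replicate 3 alone had a median of 1 (0 to 3), and 28.5% had none.

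Joining regions whose centres lay within 50 kb gave 58 groups with 130 members, 47 of them pairs, and 659 regions stood alone. The gap between neighbours had a median of 17.3 kb and a minimum of 3.06 kb. Members of groups and single regions were ranked alike, with medians of 464 and 507 in replicate 1, 431 and 458 in replicate 2, and 440 and 459 in replicate 3. In 38 of the 58 groups the same member was ranked first by all 3 lists, and in 42 by replicates 1 and 2. The 38 were 33 of the 47 pairs and 5 of the 11 larger groups. In a pair, unrelated orders also often put the same member first, and no expected count was taken.

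The group with the most members lay at chr3:88001549-88042017 and held 5 regions in 40.5 kb. From the left, they were ranked 371, 457, 7, 83 and 213 in replicate 1. In replicate 2 the ranks were 1038, 516, 14, 614 and 58, and in replicate 3 they were 276, 1062, 8, 166 and 39. The middle region was first in all 3 libraries, while replicates 2 and 3 placed the rightmost one next and replicate 1 the fourth. In the map of this group, 4 more replicate 3 peaks lie between the regions without a peak in the short lists.

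**Figure D4:**
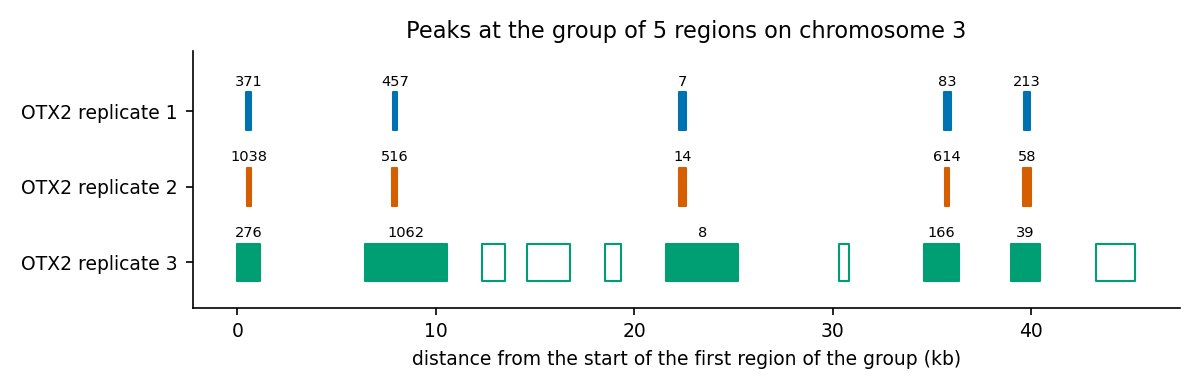
Peaks of the 3 OTX2 libraries at the group of 5 regions on chromosome 3 (x axis, kb from the start of the first region); filled bars are peaks in the regions with their rank above, and open bars are replicate 3 peaks of 1 library. Each narrow replicate 1 and 2 peak lies within a filled replicate 3 peak.

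A group of 4 lay at chr10:86851568-86953669. Its second region was ranked 57, 99 and 83, and the others lay between 232 and 2191 over the 3 lists. A group of 3 at chr7:86654415-86737928 held 2 well-placed regions, ranked 45, 22 and 79 and 50, 40 and 182. Its other region was ranked 1504, 384 and 279, and 8 replicate 3 regions without another library lay in the same 83.5 kb.

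Chromosome 18 held 2 groups of 3, at chr18:55144660-55177477 and chr18:55295591-55351003. In the first, the leftmost region was ranked 8, 34 and 19, ahead of its neighbours in every list. In the second no region led in all 3 lists, since replicates 1 and 3 put the middle one first (88 and 114) and replicate 2 the leftmost (79). The groups were thus of both kinds, with a clear leader or without one.

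The tightest group of 3 spanned 15.8 kb at chr7:100209927-100225678, and its leftmost region was ranked 156, 137 and 62. At chr8:12319444-12340687, 3 regions in 21.2 kb were ranked 157 to 683 over all lists, with a different leader in replicates 1 and 3. At chr16:91099353-91141931, 3 regions were ranked 66 to 553. The remaining groups of 3 lay at chr3:127397546-127454120, at chr7:137358527-137413149 and at chr17:63459307-63522618.

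All 19 autosomes and chromosome X carried regions of the set. Chromosomes 1 and 2 had 61 each, chromosome 4 had 57, and chromosomes 9 and 13 had 50 each. To allow for the number of peaks on a chromosome, the regions were set against the replicate 3 peaks there. Over the autosomes together there were 784 regions for 21942 peaks, or 3.57 per 100 (exact 95% interval 3.33 to 3.83).

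Single autosomes ranged from 2.59 per 100 on chromosome 10 (1.73 to 3.73) to 5.06 on chromosome 18 (3.69 to 6.76). Chromosome 19 followed with 4.63 (3.17 to 6.51) and chromosome 13 with 4.37 (3.26 to 5.72). The intervals of all 19 autosomes overlap one another. Whether intervals overlap is not a test of a difference, and the order of the chromosomes was not tested. Chromosome X had 5 regions for 375 peaks, or 1.33 per 100 (0.434 to 3.08), the lowest value, and its interval lay below those of chromosomes 13, 18 and 19. The control filter removed 4 regions of all 3 OTX2 libraries on chromosome X and 13 on the autosomes. Each of the 4 touched a peak in all 5 control lists. With control peaks ignored, chromosome X had 9 regions, or 2.40 per 100 (1.10 to 4.51). That was still the lowest value, below chromosome 10 at 2.59 and the autosomes together at 3.63. The interval of chromosome X then overlapped those of chromosome 13 (3.41 to 5.91), chromosome 18 (3.79 to 6.90) and chromosome 19 (3.17 to 6.51). In the short lists, 5 of 31 replicate 1 peaks on chromosome X lay in the regions (16.1%, 5.45 to 33.7%), against 43.7% on the autosomes. For replicate 2 it was 5 of 25 (20.0%, 6.83 to 40.7%) against 62.3%. With control peaks ignored these shares on chromosome X were 35.5% (19.2 to 54.6%) in replicate 1 and 44.0% (24.4 to 65.1%) in replicate 2, against 44.9% and 64.5% on the autosomes.

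**Figure D5:**
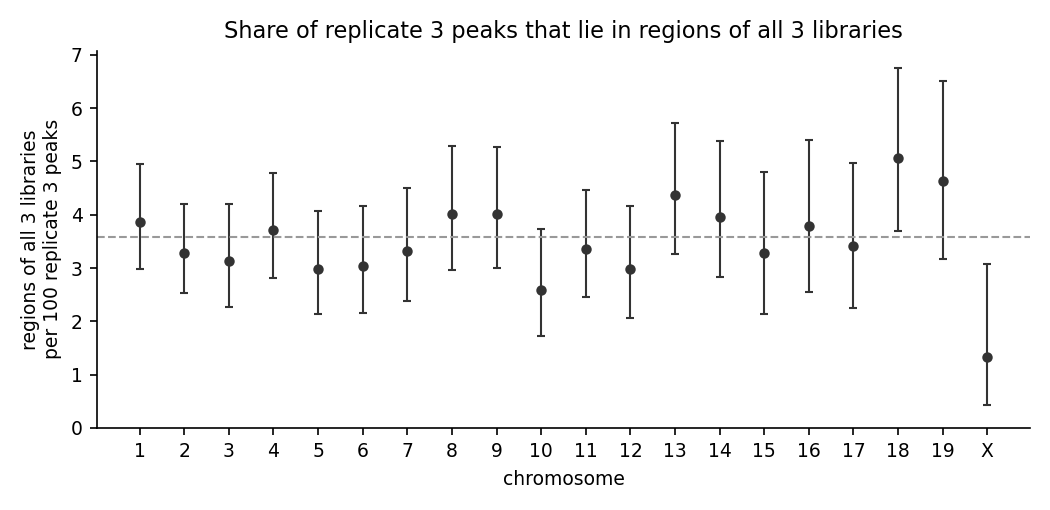
Regions of all 3 libraries per 100 replicate 3 peaks (y axis) on each chromosome (x axis); bars are exact 95% intervals and the dashed line is the value over the autosomes, 3.57. Chromosome X is lowest at 1.33 (2.40 with control peaks ignored) and chromosome 18 highest at 5.06.

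The 5 regions of chromosome X differed in rank. One at chrX:90546591-90548072 was ranked 93, 100 and 95, close to the same place in lists of very different length. Another, 128 kb to its right at chrX:90674062-90676588, was ranked 491, 957 and 938. Another at chrX:90920583-90921476 was ranked 890, 529 and 504. These 3 lay within 374.9 kb, and the other two, at chrX:11207915-11209679 and at chrX:39713948-39715245, were ranked 265, 232 and 451, and 1447, 369 and 1481.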

How the data were processed

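The deposited values were 1 BED list per library for 8 libraries, each line holding a chromosome, start, end and rank, so peaks were called per sample and not on a pool. BWA, MACS 1.4 and the build mm9 are named, without roles, per the submitters' processing notes. Which control each list was called against, at which threshold and by what the peaks were ranked is not stated. Coordinates are in mm9 and written 1-based.

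Merging and counting were done in Python 3.11.15 (scipy 1.17.1, numpy 2.4.6), and figures were drawn with matplotlib 3.10.9. The merging was tested on simulated lists, and bedtools 2.31.1 gave the same 789 regions. The best-ranked peak of each library stood for a region. Intervals are exact Clopper-Pearson 95% intervals and cover counting error only. No test was made, since regions are not replicates and the rule used their presence.

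Named regions were the 20 with the lowest worst rank percentile, the 5 of widest spread, 3 on each side of the rule and the 5 largest groups with ties. Members, lists and rules were chosen with earlier results of these data known. Motifs, transcription starts and gene lists were not analysed here, because an mm9 genome was not used.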

Additional observations from a re-analysis of the deposited data

How the results depend on the processing

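The number of regions was 471 when only the better-ranked 50% of each list was used, and leaving out 1 OTX2 library gave between 759 and 1583. Requiring an overlap of 50% of the shorter peak left 789, lists of equal length gave 648, 200 bp windows 530, ignoring control peaks 806, and removing regions within 10 kb of a control peak 780. The median width was 1741 bp in the better-ranked 50%, 305.5 bp with 200 bp windows, and 333 to 1468.5 bp with 1 library left out. The percentage with another region within 50 kb was 12.95% in the better-ranked 50%, 9.62% with 200 bp windows, and 17.1 to 22.7% with 1 library left out. It was 9.51% within 20 kb and 24.7% within 100 kb. One alternative each was run for placement and order: the closest pair of peaks gave 45.5 bp between replicate 1 and 2 centres, and mean ranks gave rho of 0.65, 0.74 and 0.75. The planned motif and transcription start results were not run. Pairing by replicate number, chosen after seeing the data, removed from each OTX2 list only peaks touching a control peak of the same number before merging, and gave 790 regions, which overlapped all 789, with a median width of 1585.5 bp and 16.5% with another within 50 kb. Depth is unknown, so absence from a list does not show absence of binding.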

Other observations

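A few of the best 100 peaks of a list were free of control peaks and still missed 1 of the other libraries, and they were looked for after the data were seen. In replicate 3, rank 46 at chr6:52774349-52775691 and rank 81 at chr4:29062512-29063765 had a replicate 1 peak and no replicate 2 peak. In replicate 1, rank 64 at chr19:14581383-14581906 had no replicate 2 peak. In replicate 2, rank 41 at chr2:71373994-71374466 and rank 77 at chr5:10592435-10592775 had no replicate 1 peak. The peak of replicate 2 at rank 98, at chr7:52148119-52148437, was shared with replicate 1 and had no replicate 3 peak, although that list is the longest. None of the best 100 peaks of a list was both free of control peaks and seen in 1 library only.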
